A study of Mus musculus with 19 samples.

Results

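Chn1 encodes alpha-chimaerin, a protein that switches off the small GTPase Rac1 and acts downstream of the receptor tyrosine kinase EphA4. It was followed here in mouse forebrain by 1 of 8751 rows of log2 expression, probe set 17372021, the only row whose sole platform symbol was Chn1. It was 1 of 1121 genes measured under a symbol of their own. The arrays came from EphA4 knockout mice and wild-type littermates of a mixed BL6/10 background, which were either sleep deprived for 6 h or left undisturbed. The groups were 5 arrays of sleep-deprived knockouts, 4 of control knockouts, 6 of sleep-deprived wild types and 4 of control wild types. All groups shared the light-dark cycle and the strain background, and the labels named neither the knockout allele nor the age of the mice. Each array was labelled as a separate sample, but no label says that the arrays stem from separate animals. The p-values therefore reflect variation among the arrays, which may be technical. No row used here carried Epha4 as its symbol, and 0 of 30 marker genes of neurons, glia, endothelium, forebrain and other brain regions had a row, so neither genotype nor tissue could be checked against the values. Array medians lay between 5.90 and 6.07 on the log2 scale, and the few arrays in each group limit precision.

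Alpha-chimaerin has a GTPase-activating domain that turns Rac1 off and a C1 domain that binds the lipid messenger diacylglycerol. When an ephrin binds EphA4 on a growing axon, the long form, alpha2-chimaerin, docks to the activated receptor through its SH2 domain, and the loss of Rac activity contributes to collapse of the growth cone. Mice without Chn1 have the same hopping gait as mice without EphA4, because spinal axons cross the midline where they should not. The short form, alpha1-chimaerin, lacks the SH2 domain, is made from an internal start of the gene, and is found in neurons of the adult forebrain, where it acts in dendrites and spines.

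RefSeq listed 2 start sites for Chn1, 114923 bases apart on the minus strand of chromosome 2 in build GRCm38.p6. The windows around them, each with 250 bases before the start and 50 after it, are shown because the 1 array value carries no label that tells transcripts of these starts apart. Capitals in the upstream window mark a match to the X-box bound by RFX factors, and the downstream window has no capitals.
Upstream start, chr2:73775297-73775596, minus strand: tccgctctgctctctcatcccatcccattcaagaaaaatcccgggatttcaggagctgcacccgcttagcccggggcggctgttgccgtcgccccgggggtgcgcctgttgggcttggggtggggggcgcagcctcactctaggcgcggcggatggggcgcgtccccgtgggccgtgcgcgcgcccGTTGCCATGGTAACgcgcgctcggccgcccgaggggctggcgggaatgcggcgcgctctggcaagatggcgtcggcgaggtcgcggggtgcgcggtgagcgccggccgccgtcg
Downstream start, chr2:73660374-73660673, minus strand: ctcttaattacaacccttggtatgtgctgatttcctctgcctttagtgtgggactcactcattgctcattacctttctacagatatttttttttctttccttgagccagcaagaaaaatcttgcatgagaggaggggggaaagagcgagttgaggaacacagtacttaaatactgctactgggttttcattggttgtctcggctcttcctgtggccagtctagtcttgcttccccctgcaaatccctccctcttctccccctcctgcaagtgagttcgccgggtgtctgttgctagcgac

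The 2 windows differed in base composition. The upstream window was 73.3% G and C and held 43 CG pairs, and 94.5% of the 32851 promoter windows in the same table had a lower share of G and C. The downstream window was 47.7% G and C with 5 CG pairs, against a median of 52.7% and 7 CG pairs over all windows. The X-box was searched on both strands by a pattern with a fixed length of 14 bases. Its match began 64 bases before the upstream start. This pattern was found in 16 of the 32851 windows (0.0487%) and was chosen after this sequence had been seen. The share holds for this pattern alone, and looser forms of the X-box were not searched. The GC box GGGCGG of SP1 factors occurred at 2 places in the upstream window, 177 bases before the start and, on the other strand, 40 bases before it, without overlap with the X-box, and 35.7% of all windows held it. Neither window held the CREB half-site TGACG (20.8% of all windows), the full CREB site TGACGTCA (1.79%), the AP-1 site TGANTCA (7.81%), the E-box CACGTG of clock factors (7.15%) or TATAAA (13.6%). The full CREB site contains the half-site. These are matches of letters in the reference, and none was measured as a binding site.

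The 4 group means of Chn1 lay within 0.086 of each other on the log2 scale, or 1.06-fold. In sleep-deprived knockouts its log2 level was 7.68, 7.72, 7.53, 7.71 and 7.41 on replicates 1 to 5. In control knockouts it was 7.67, 7.62, 7.57 and 7.81. In sleep-deprived wild types the lowest of the 6 arrays read 7.44, the median 7.59 and the highest 7.75. In control wild types it was 7.70, 7.62, 7.73 and 7.66. All 4 groups overlapped, and the arrays at either end of the range belonged to different groups of the same genotype: the lowest was a sleep-deprived knockout and the highest a control knockout. The whole range over 19 arrays was 0.40 on the log2 scale, or 1.32-fold.

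**Figure D1:**
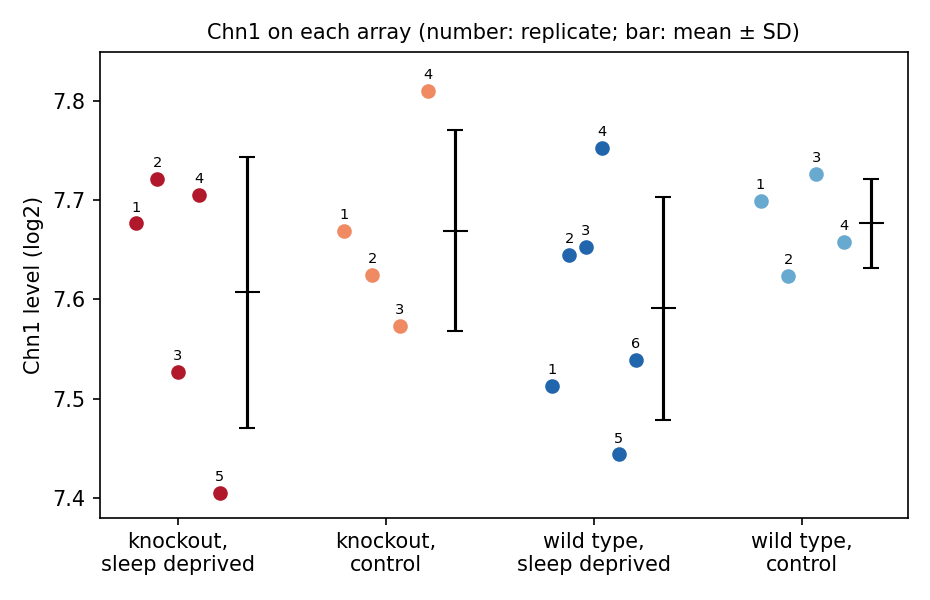
Log2 level of Chn1 on each of the 19 arrays, by group; points are arrays with their replicate number and black bars show the mean and SD. The group means lie between 7.59 and 7.68, and the ranges of all 4 groups overlap.

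The mean level was 7.61 ± 0.14 (SD, n = 5) in sleep-deprived knockouts, 7.67 ± 0.10 (SD, n = 4) in control knockouts, 7.59 ± 0.11 (SD, n = 6) in sleep-deprived wild types and 7.68 ± 0.045 (SD, n = 4) in control wild types. Both sleep-deprived groups thus stood below both control groups by their means. The lowest and the highest group mean were 0.086 apart on the log2 scale, less than the SD in 3 of the 4 groups, and groups next to each other in the order of means did not differ beyond their spread. The range was 0.32 in sleep-deprived knockouts, 0.24 in control knockouts, 0.31 in sleep-deprived wild types and 0.10 in control wild types, whose 4 arrays lay closest together. The spread between arrays of a group, 0.11 over all groups, was smaller for Chn1 than for most rows, since 14.8% of the 8751 rows had a smaller one and the median row had 0.17.

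The effect of sleep deprivation asked whether Chn1 transcript changed after 6 h of enforced wakefulness. Averaged over both genotypes, Chn1 had a log2 change of -0.074 ± 0.056 (SE), or 0.950-fold, and did not pass limma's test (adjusted p = 0.80). The 95% interval of this change ran from 0.876-fold to 1.03-fold. Among all rows 0.263% were called in this comparison. In knockouts the change was -0.062 ± 0.080 (SE), at 7.61 ± 0.14 (SD, n = 5) in sleep-deprived mice against 7.67 ± 0.10 (SD, n = 4) in controls (limma, adjusted p = 0.82), where 0.263% of rows were called. In wild types it was -0.086 ± 0.077 (SE), at 7.59 ± 0.11 (SD, n = 6) against 7.68 ± 0.045 (SD, n = 4) (limma, adjusted p = 0.80). In wild types 0% of rows were called and 683 rows had an unadjusted p under 0.05. In bulk tissue, fewer cells that express a gene and less of its RNA per cell cannot be told apart.

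Some sleep-deprived arrays lay below every control of their genotype, but not all. In knockouts this held for 2 of the 5 sleep-deprived arrays, replicates 3 and 5, and none of the 5 lay above all controls. In wild types 3 of 6 sleep-deprived arrays lay below all 4 controls and 1 lay above them. An exact permutation test, two-sided, gave p = 0.51 for the knockouts and p = 0.21 for the wild types (adjusted p = 0.97 and 0.84 over the 4 pairwise comparisons made). The arrays of these designs can be regrouped in 126 and 210 ways, which limits how small p can be. The array with the lowest Chn1 level, replicate 5 of the sleep-deprived knockouts, also had the highest array median, 6.07, and the lowest weight when limma weighted arrays by their quality, 0.559. Without it the change in knockouts was -0.012 and the averaged change -0.049.

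The comparison of genotypes asked whether loss of EphA4 altered the transcript of its effector. Averaged over both conditions, Chn1 differed between knockout and wild type by 0.0044 ± 0.056 (log2, SE), with a 95% interval from 0.925-fold to 1.09-fold (limma, adjusted p = 0.99). The share of rows called in this comparison was 0.0114%. In controls the difference was -0.0074 ± 0.085 (SE), with 7.67 in knockouts against 7.68 in wild types (limma, adjusted p = 0.99). There 0% of rows were called, with 476 at an unadjusted p under 0.05. After sleep deprivation it was 0.016 ± 0.072 (SE), with 7.61 in knockouts against 7.59 in wild types (limma, adjusted p = 0.95), in a comparison in which 1.68% of rows were called. The exact permutation test gave p = 0.97 for the controls and p = 0.84 for the sleep-deprived mice (adjusted p = 0.97 for both), over 70 and 462 regroupings. The sign of these genotype differences turned under quantile normalization or median centring for the averaged and the sleep-deprived comparison, and none was called under any alternative run.

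The interaction asked whether the response of Chn1 to sleep deprivation depended on genotype. The change in knockouts exceeded that in wild types by 0.024 ± 0.11 (log2, SE; limma, adjusted p = 0.95), and 0.0686% of rows were called. Its 95% interval, from -0.21 to 0.26, was the widest of the 7 comparisons. The 7 intervals lay within 0.26 on the log2 scale on either side of 0, and each held 0. They are not adjusted for the number of comparisons, and a p that misses the threshold does not show that Chn1 was equal between groups.

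**Figure D2:**
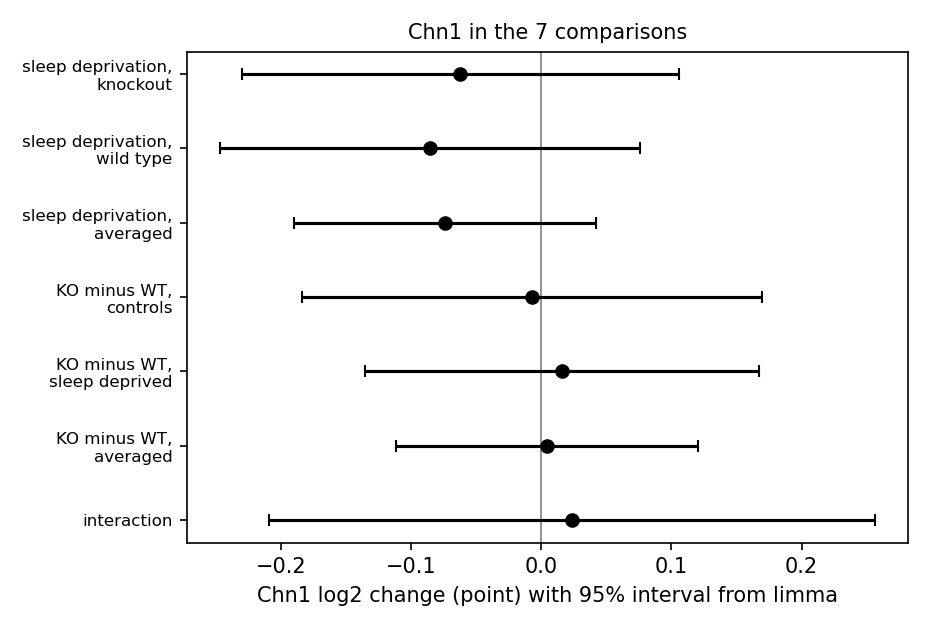
Log2 change of Chn1 (points) with its 95% interval from limma (bars) in the 7 comparisons, sleep deprived minus control in the top 3, knockout minus wild type in the next 3 and the interaction last. Every interval holds 0; the averaged sleep deprivation change is -0.074 and the averaged genotype difference 0.0044.

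Of 216 genes listed for signalling around alpha-chimaerin, 11 had a row under their own symbol, Chn1 included. No row used here stood for the 14 Eph receptors, 8 ephrins or 22 genes of diacylglycerol and protein kinase C signalling, and nothing is said of them. Of 2 chimaerins Chn1 was measured. Of 24 exchange factors and adaptors tied to Eph receptors, 1 was measured, Anks1, an adaptor that binds Eph receptors. Of 32 effectors and actin regulators 2 were measured, Cfl1 (cofilin, which severs actin filaments) and Arpc5 (a subunit of the Arp2/3 complex, which branches them). Of 91 activators and inactivators of small GTPases 5 were measured: Arhgap26 and Arhgap27, which turn GTPases off, and Arhgef10, Arhgef38 and Mcf2l, of the family that turns them on. Of 5 NMDA receptor subunits, a receptor whose GluN2A subunit alpha1-chimaerin binds, Grin2c and Grin2d were measured.

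None of the 11 genes passed limma's test over all rows in any of the 7 comparisons. For sleep deprivation averaged over genotypes 0 of 11 passed, against 0.263% of all rows, and 1 of 11 had an unadjusted p under 0.05. Their median log2 change was 0.054, with 7 positive and 4 negative, against a median of 0.015 over all rows. For genotype averaged over conditions 0 of 11 passed, against 0.0114% of all rows, and none had an unadjusted p under 0.05. Their median was 0.014, with 7 positive and 4 negative, against 0.015 over all rows. In the other 5 comparisons 0 of 11 passed as well. The number with an unadjusted p under 0.05 was 2 for sleep deprivation in knockouts, 1 in wild types, 0 for genotype in controls, 1 after sleep deprivation and 1 for the interaction. Over all 8751 rows that number was 1030, 683, 476, 1345 and 1007 in the same order. It was 694 for averaged sleep deprivation and 764 for averaged genotype. A count of 0 of 11 is near the share of all rows called in each of these comparisons.

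Arhgap26, which encodes an inactivator of small GTPases, had the largest change of the 11 with sleep deprivation averaged over genotypes, while Grin2c had the larger value within knockouts (0.28 against 0.18 on the log2 scale) and Mcf2l within wild types (0.20 against 0.18). In knockouts its log2 level was 7.11, 7.06, 7.23, 7.24 and 7.01 on the 5 sleep-deprived arrays, against 6.74, 7.04, 7.05 and 6.98 on the 4 controls. In wild types the 6 sleep-deprived arrays ran from 7.05 to 7.27 with a median of 7.17, against 6.98, 6.99, 6.99 and 6.97 on the controls. The groups overlapped in knockouts. They did not overlap in wild types, where the controls had an SD of 0.0064. The share of all rows without overlap was not counted, and Arhgap26 was picked out for its large change. Its averaged change was 0.18 ± 0.052 (log2, SE; limma, unadjusted p = 0.0027, adjusted p = 0.25), so it did not pass over all rows. Its sign was the opposite of that of Chn1.

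Grin2c, an NMDA receptor subunit gene, had the largest interaction of the 11. In knockouts it read 6.02, 5.82, 6.16, 6.03 and 6.14 on the sleep-deprived arrays, against 5.66, 5.84, 5.56 and 5.93 on the controls. In wild types it ran from 5.70 to 5.87 with a median of 5.80 on the sleep-deprived arrays, against 6.05, 6.02, 5.87 and 5.69 on the controls. Sleep-deprived knockouts thus stood higher and sleep-deprived wild types lower than their controls by their means, with overlap in both genotypes. The interaction was 0.39 ± 0.13 (log2, SE; limma, adjusted p = 0.25) and did not pass.

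Of the actin regulators, Cfl1 averaged 11.2 ± 0.057 (SD, n = 5) in sleep-deprived knockouts and 11.3 ± 0.027 (SD, n = 6) in sleep-deprived wild types, a difference of -0.089 ± 0.053 (log2, SE; limma, adjusted p = 0.45). Arpc5 had a change with sleep deprivation, averaged over genotypes, of 0.098 ± 0.051 (log2, SE; limma, adjusted p = 0.66). Neither difference passed the test. The averaged sleep deprivation changes of the remaining members ran from -0.068 for Arhgap27 to 0.069 for Arhgef10, with -0.042 for Arhgef38, 0.016 for Anks1, 0.054 for Grin2d and 0.057 for Mcf2l. Mcf2l had the largest averaged genotype difference of the 11, 0.11 on the log2 scale.

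**Figure D3:**
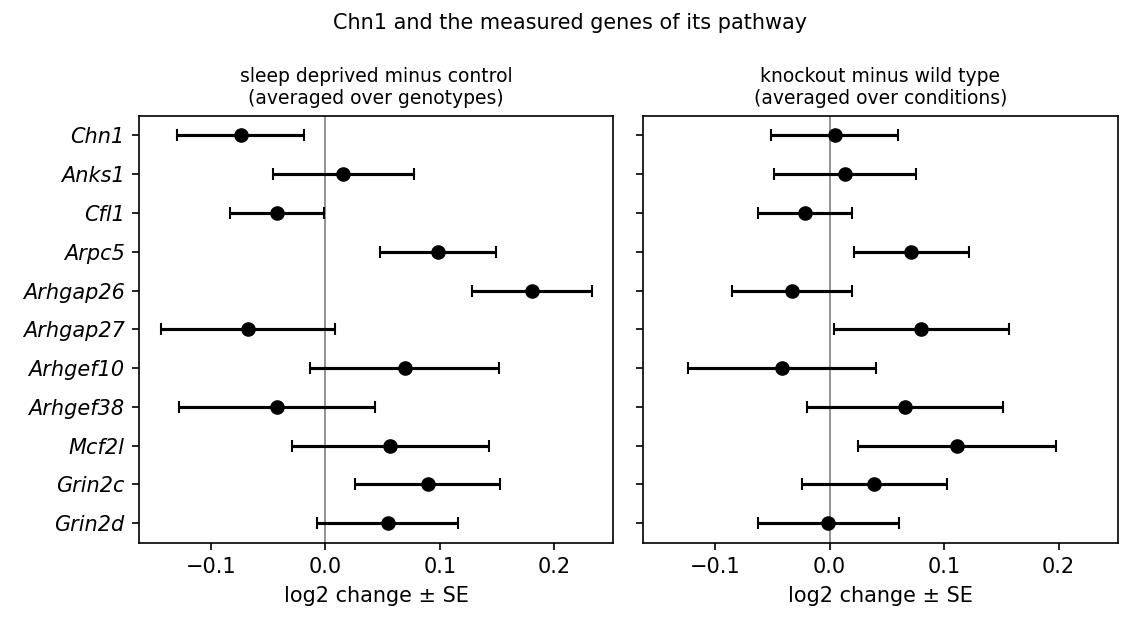
Log2 change with its SE for Chn1 and the 10 other measured genes of the list, sleep deprived minus control on the left and knockout minus wild type on the right. Arhgap26 stands farthest from 0 on the left, at 0.18, and Mcf2l on the right, at 0.11; none of the 11 passed the test.

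The genes whose levels followed Chn1 most closely were sought among 771 other genes by Pearson correlation over the 19 arrays, as a description. The correlations ran from -0.66 to 0.68 with a median of 0.023, and none was above 0.7 or below -0.7. The 5 highest were those of Speer4f2 (0.68), a member of a family of near-identical testis genes whose probes may be shared, Ginm1 (0.65), which encodes a membrane glycoprotein, Twf1 (0.60), which encodes twinfilin, a protein that binds actin monomers, Vdac3 (0.56), a channel of the outer mitochondrial membrane, and Tmed2 (0.56), a cargo receptor of the early secretory pathway. With group means removed these correlations were 0.67, 0.63, 0.61, 0.62 and 0.64 in the same order, so they did not rest on differences between group means. The 3 lowest were those of Slc29a1 (-0.66), a nucleoside transporter, Zscan4a (-0.58), a zinc finger gene with close copies, and Cish (-0.58), an inhibitor of cytokine signalling. Slc29a1 was a dim row, with group means from 4.35 to 4.51, below the median of every array. With each array's median subtracted the 3 lowest were -0.27, -0.55 and -0.29, while the 5 highest were then between 0.69 and 0.76. The same median was taken from both genes of a pair, which puts a shared term into these values. They therefore cannot tell which correlations rest on differences between arrays. Of the 10 other genes of the list, the strongest correlations with Chn1 were 0.25 for Arhgef38 and -0.31 for Grin2d, with 0.033 for Cfl1. The points share their array and its normalization.

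Chn1 was also set against the median of its array. Over the 19 arrays Pearson's r was -0.32 (permutation test, two-sided, p = 0.18, adjusted p = 0.21) and Spearman's rho -0.12 (p = 0.61, adjusted p = 0.61), and with group means removed r was -0.30 (p = 0.21, adjusted p = 0.21) and rho -0.18 (p = 0.46, adjusted p = 0.61). These were the 2 relations computed. Without the 2 arrays whose medians lay farthest from the middle, replicate 5 of the sleep-deprived knockouts and replicate 1 of the sleep-deprived wild types, r was 0.12, so the negative sign rested on those arrays. Mean array medians were 5.99 in sleep-deprived knockouts, 5.98 in control knockouts, 5.96 in sleep-deprived wild types and 5.94 in control wild types. Their part in the differences of Chn1 between groups was not tested beyond the median centring given among the alternatives.

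**Figure D4:**
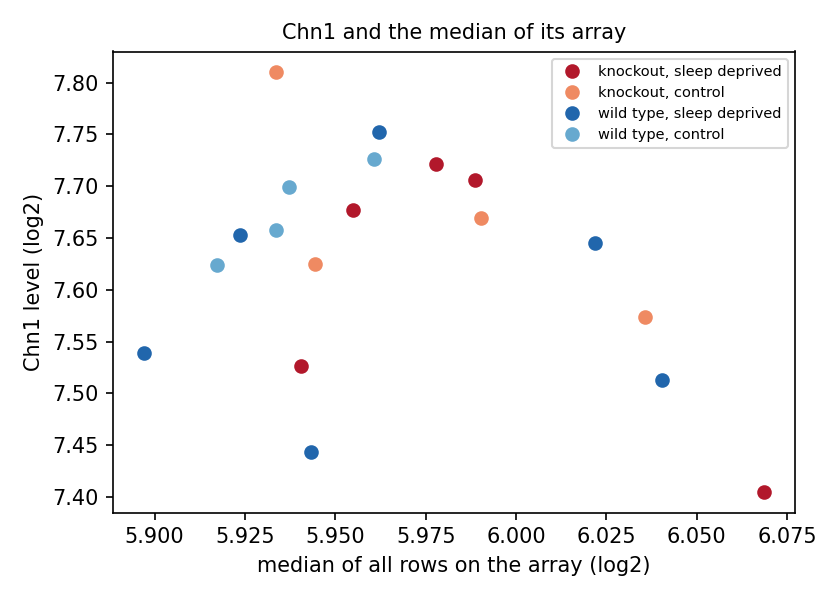
Log2 level of Chn1 against the median log2 level of all rows on the same array, with 1 point for each of the 19 arrays coloured by group. The point at the lower right is replicate 5 of the sleep-deprived knockouts, with Chn1 at 7.41 and an array median of 6.07; r over all arrays is -0.32.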

How the data were processed

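Forebrain RNA from 19 samples was hybridised to Affymetrix Mouse Gene 2.0 ST arrays. The deposited values are log2 expression per probe set, and RMA, oligo and limma are named in the submitters' processing notes. Their versions, their order and the genome build were not given in the sources used here. Groups came from sample titles. Platform annotation named 1308 of the 8751 rows with 1 symbol, 1178 with several and left 6265 unnamed here. For a gene with several rows the brightest was used.

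Each row was fitted with limma 3.58.1 (R 4.3.3) as 4 group means on all 19 arrays without covariates, and p-values were adjusted by Benjamini-Hochberg over all 8751 rows, with a threshold of 0.05. The script was tested on simulated data. Exact permutation tests used scipy 1.17.1, and correlations were tested with 100000 resamples. Named genes were Chn1, every measured gene of the signalling list, and the 5 most and 3 least correlated genes, passing over predicted, microRNA and small nucleolar genes. The gene and lists were chosen with earlier results of these data known. Promoter windows came from RefSeq (GRCm38.p6), and 1 of 1 gene matched by symbol. Alternatives covered normalization, centring, prior variance, array weights, row filters, the arrays fitted, a replicate block and leaving out each array.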

Additional observations from a re-analysis of the deposited data

Results flagged for a closer look

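No array of any group stood apart for Chn1. Among the 11 measured genes, 44 gene and group combinations were examined for an array far from the others of its group, and 3 were found. Chance gives about 1 in 20. Cfl1 read 11.49 on replicate 2 of the control knockouts, against 11.27 to 11.30 on the other 3. Arhgef10 read 6.66 on the same array, against 7.23 to 7.27 on the other 3. That array had a weight of 0.573, while its Chn1 level, 7.62, lay within the range of its group. Arpc5 read 8.11 on replicate 4 of the sleep-deprived wild types, against 7.89 to 7.95 on the other 5, and Chn1 was highest in its group on that array, at 7.75.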

How the results depend on the processing

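Chn1 passed the threshold in none of the 7 comparisons under any of the 28 or 29 alternatives run for each. Its adjusted p lay between 0.67 and 1.00. The 3 sleep deprivation changes kept a negative sign throughout, from -0.095 to -0.024 averaged over genotypes, -0.099 to -0.012 in knockouts and -0.12 to -0.030 in wild types. The genotype differences and the interaction, all near 0, changed sign. With quantile normalization they were -0.028 after sleep deprivation, -0.024 averaged and -0.0088 for the interaction, and with median centring -0.0053 after sleep deprivation and -0.026 averaged. On leaving out single arrays they ran from -0.054 to 0.025 in controls, -0.013 to 0.067 after sleep deprivation, -0.019 to 0.030 averaged and -0.0084 to 0.074 for the interaction. The cause was not tested.

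The labels give no pairing for the shared replicate numbers. Of 25 pairs of same-numbered arrays, 0 had deviations correlated above 0.1 (-0.22 to 0.078), and 0 arrays correlated best with their own number. With the replicate number as a block, the averaged sleep deprivation change was -0.024 and the averaged genotype difference -0.00082, which turned its sign. Replicate 6 occurred only in sleep-deprived wild types, so the block took that array out. Without that array and without a block, genotype averaged (-0.00082), genotype after sleep deprivation (0.0057) and the interaction (0.013) equalled their block values. The averaged sleep deprivation change was then -0.069. Replicate 5 occurred only in sleep-deprived groups, without a control of that number. Dropping replicates 5 and 6 together was not tested. The block gave 9 called rows against 23 for averaged sleep deprivation and 70 against 147 for genotype after sleep deprivation.

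In the settings that tested all 8751 rows, the number of calls ran from 9 to 39 for averaged sleep deprivation, 6 to 43 in knockouts, 0 to 3 in wild types, 36 to 298 for genotype after sleep deprivation, 0 to 3 for averaged genotype and 2 to 41 for the interaction, with 0 in each for genotype in controls. With the 1308 rows of 1 symbol tested alone, 0 rows passed for the interaction, 8 for averaged sleep deprivation and 28 for genotype after sleep deprivation. The same alternatives, chosen after seeing the data for the signalling list, gave 0 called genes of the list in every one. The averaged sleep deprivation change of Arhgap26 ran from 0.15 to 0.20 (limma, adjusted p from 0.10 to 0.47) and the interaction of Grin2c from 0.33 to 0.46 (limma, adjusted p from 0.17 to 0.40). Use of other Chn1 rows was not run, since there is 1.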
